A study of Mus musculus with 13 samples.

Results

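The genes described here were 44 genes of the cell cycle and of DNA replication, chosen by name, with earlier results of these data known. Of these, 39 had a row among the 18138 genes of the arrays, and 16 were detected on enough arrays to be tested, beside 8431 genes tested in all. Mki67, Aurkb, Kif20a, Racgap1 and Cdk4 were not analysed here. Liver RNA of 13 male mice of the B6C3F1 hybrid was measured on Illumina bead arrays, with 1 array per mouse, and all groups were 7 days old when the study began. The 4 control mice drank deionised water only. The 4 DCA mice drank dichloroacetic acid at 3.5 g/L for 10 weeks and then water for 90 weeks. The 5 PB mice drank phenobarbital at 0.06% for 10 weeks and then water for 90 weeks. The design therefore asks what remained in the liver long after either exposure had ended. Dichloroacetic acid is a by-product of water disinfection that inhibits pyruvate dehydrogenase kinases. Phenobarbital activates the nuclear receptor CAR and can stimulate division of rodent hepatocytes. The RNA came from homogenised pieces of frozen liver, and the labels used here do not say whether a piece held a tumour. In such bulk samples, fewer dividing cells and less RNA per cell cannot be told apart.

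A cell enters the cycle when D-type cyclins and their kinases inactivate the retinoblastoma protein, which frees E2F transcription factors to switch on the genes of DNA synthesis. Origins of replication are then licensed by loading the MCM helicase, and deoxynucleotides are supplied by ribonucleotide reductase, thymidine kinase and thymidylate synthase. Later FOXM1, B-MYB and the MuvB complex switch on the genes of mitosis. Hepatocytes of an adult liver are mostly quiescent, and most of these transcripts are scarce there outside regeneration, injury or tumour growth.

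The mean raw intensity of an array lay between 188.6 and 462 units, and between 39.4% and 46.6% of genes were detected, with a detection p under 0.05. The number of arrays limits the precision of every value below. Of 6 hepatocyte markers, Apoa1, Ttr, Serpina1a and Cps1 were detected on all 13 arrays, with log2 levels from 9.78 to 14.4. Tat was detected on no array and Alb, the gene of serum albumin, on only 4. A gene listed as not detected here need not have lacked RNA. Where the detection p was combined over several probes it could also miss a gene above background, as for Ccnd3 on control replicate 4, whose raw intensity was 1.88 times the mean of the negative control beads.

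Few of the mitotic genes were detected on enough arrays to be tested. Tested were 0 of 6 genes of mitotic entry and checkpoint and 2 of 11 of chromosome segregation, against 46.5% of all genes. The 1 cytokinesis gene with a row, Prc1, was tested. Detected on no array were 3 of those 6 (50.0%) and 8 of those 11 (72.7%), against 41.0% of all genes. Of the 39 genes, 18 were detected on no array (46.2%, against 41.0% of all genes), 5 were detected on 1 to 3 arrays and 7 on all 13 (17.9%, against 29.6% of all genes). The untested genes had raw intensities between 86.8 and 156 units, beside a mean of the negative control beads of 94.4 to 113 units depending on the array. The highest of them was Mcm4, at 1.05 to 1.38 times that mean with a combined detection p. Of the 16 genes tested, PB minus control and DCA minus control gave no change at an adjusted p of 0.05, and neither did DCA minus PB.

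**Figure D1:**
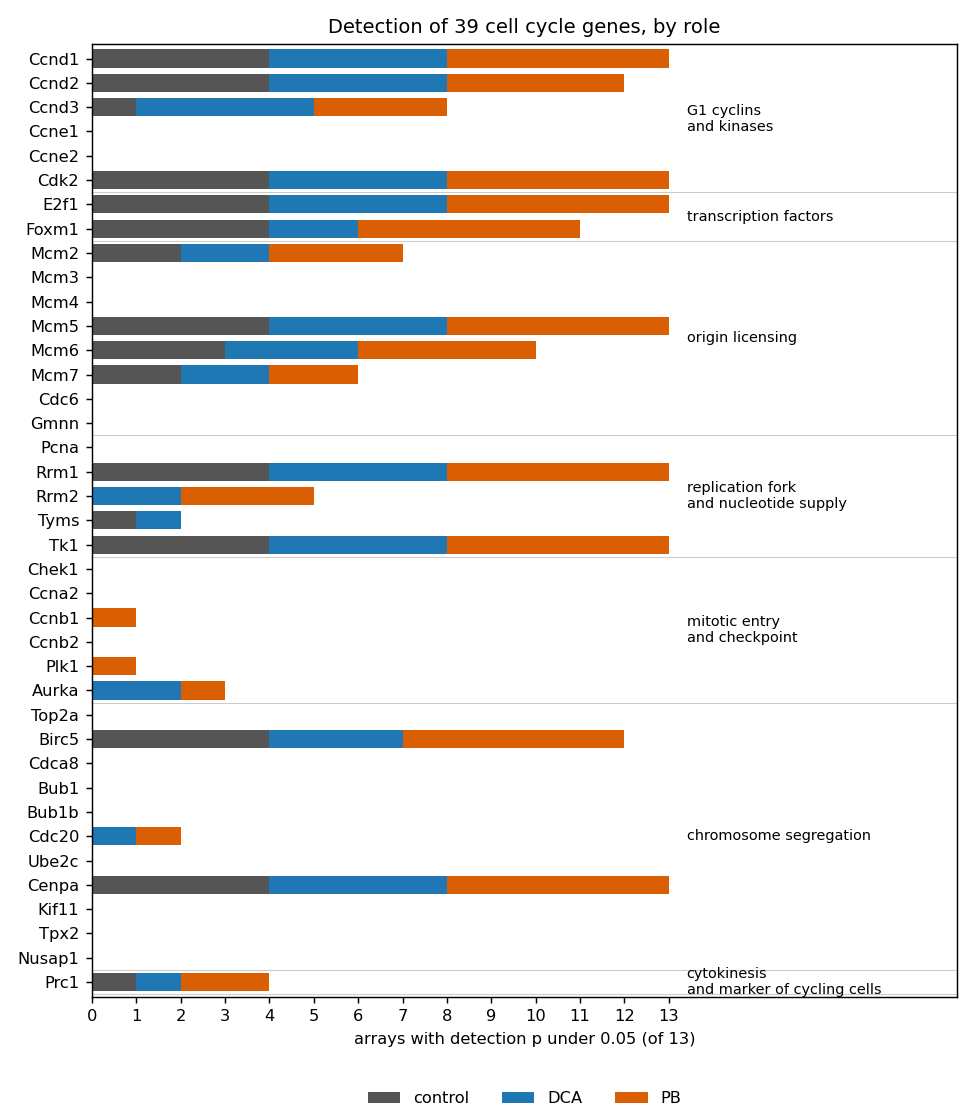
Number of arrays, of 13, on which each of the 39 genes had a detection p under 0.05, coloured by group (4 control, 4 DCA, 5 PB) and ordered by role. The 6 genes of mitotic entry and checkpoint were detected on at most 3 arrays each. Of 11 genes of chromosome segregation, 8 were detected on none (72.7%, against 41.0% of all genes).

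Promoters are shown here for 5 of the genes. Plk1, Ccnb1, Cdc20 and Prc1 are mitotic genes whose normalized log2 level was highest on the same PB array, PB replicate 1. Cdk2 was the member that lay lower on every DCA array than on any control array. These genes were chosen after their values were seen, and other mitotic genes were also highest on PB replicate 1. Each sequence holds the 250 bases before the first transcription start, from RefSeq (GRCm38.p6), written 5′ to 3′ on the strand of the gene. Capitals mark the searched motifs, which were CCAAT, the cell cycle genes homology region TTTGAA, and the E2F motifs TTTGGCGC, TTTCGCGC, TTTCCCGC and TTTGCCGC, on both strands. The regions are chr7:122159185-122159434 on the plus strand for Plk1, chr13:100786487-100786736 on the minus strand for Ccnb1, chr4:118437344-118437593 on the minus strand for Cdc20, chr7:80294201-80294450 on the plus strand for Prc1 and chr10:128705052-128705301 on the minus strand for Cdk2.
Plk1: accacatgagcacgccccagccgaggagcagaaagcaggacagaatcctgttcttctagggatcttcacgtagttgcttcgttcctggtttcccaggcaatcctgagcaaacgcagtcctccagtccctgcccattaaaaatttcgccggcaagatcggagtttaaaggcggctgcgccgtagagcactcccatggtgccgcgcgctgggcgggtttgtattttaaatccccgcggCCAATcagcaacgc
Ccnb1: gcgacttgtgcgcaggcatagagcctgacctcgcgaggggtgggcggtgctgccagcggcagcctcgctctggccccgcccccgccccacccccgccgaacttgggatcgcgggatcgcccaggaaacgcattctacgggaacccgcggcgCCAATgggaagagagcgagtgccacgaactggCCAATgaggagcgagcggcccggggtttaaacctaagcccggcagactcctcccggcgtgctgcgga
Cdc20: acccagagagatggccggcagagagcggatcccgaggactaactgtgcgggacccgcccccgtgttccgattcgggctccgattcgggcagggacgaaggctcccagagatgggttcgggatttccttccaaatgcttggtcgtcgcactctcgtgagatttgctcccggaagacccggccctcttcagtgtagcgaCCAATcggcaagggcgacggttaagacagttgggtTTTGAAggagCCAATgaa
Prc1: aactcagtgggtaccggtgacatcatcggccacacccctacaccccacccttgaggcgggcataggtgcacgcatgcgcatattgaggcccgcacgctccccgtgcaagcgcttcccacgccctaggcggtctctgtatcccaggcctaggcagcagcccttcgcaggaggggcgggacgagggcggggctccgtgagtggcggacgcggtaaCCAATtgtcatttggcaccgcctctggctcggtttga
Cdk2: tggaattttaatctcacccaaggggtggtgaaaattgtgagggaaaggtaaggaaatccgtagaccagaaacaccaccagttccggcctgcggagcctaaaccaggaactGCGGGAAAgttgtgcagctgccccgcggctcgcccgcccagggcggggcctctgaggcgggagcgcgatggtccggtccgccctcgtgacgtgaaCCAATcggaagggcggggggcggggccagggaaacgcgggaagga

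Each of these 5 promoters held CCAAT, the motif of the trimeric factor NF-Y. In Plk1 it lay 14 to 10 bases before the start, in Prc1 37 to 33 bases, and in Cdk2 45 to 41 bases. Ccnb1 held it at 99 to 95 and at 67 to 63 bases, and Cdc20 at 53 to 49 and at 8 to 4 bases. Cdc20 was the only one of the 5 with TTTGAA, 18 to 13 bases before the start. Cdk2 alone of the 5 held an E2F motif, read on the opposite strand as GCGGGAAA, 140 to 133 bases before the start. A promoter was matched for 31 of the 39 genes. CCAAT was found in 22 of the 31 (71.0%), against 34.5% of all 27025 promoters. An E2F motif was found in 5 of the 31 (16.1%), against 1.91% of all promoters, and TTTGAA in 6 (19.4%), against 16.3%. The E2F motifs were in Mcm5, Mcm6, Mcm7, Cdc6 and Cdk2, so 4 of the 5 belonged to tested genes. TTTGAA was in 1 of the 13 tested genes with a promoter (Mcm2) and in 5 of the 18 untested ones (Ccnb2, Cdc20, Kif11, Top2a and Ube2c). Other mitotic genes highest on PB replicate 1 were Aurka, Cenpa, Top2a and Kif11, which held CCAAT. Birc5 and Nusap1 were also highest there and held none of the searched motifs. A match of letters is a description and not evidence of binding.

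Among the G1 cyclins and kinases, 4 of 6 genes were tested. Ccnd1, the cyclin induced by growth signals, was detected on all 13 arrays. Its log2 levels were 7.96, 8.24, 7.34 and 8.59 in control mice, 7.46, 8.28, 8.57 and 7.56 in DCA mice, and 10.79, 7.96, 8.78, 8.08 and 8.81 in PB mice. All 3 groups overlapped, and PB replicate 1 stood well above the next array, PB replicate 5. The PB minus control difference was 0.85 ± 0.48 (SE; limma adjusted p = 0.597), and the DCA minus PB difference was -0.91 ± 0.48 (adjusted p = 0.400). Without PB replicate 1 these were 0.37 and -0.44. The SD of Ccnd1 within groups, 0.83, lay at percentile 98.2 of all tested genes.

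Ccnd2, another D-type cyclin, had the largest SD within groups of the 16 genes, 0.87, at percentile 98.6. Its log2 levels were 5.21, 7.58, 6.74 and 5.64 in control mice, 6.52, 6.72, 6.23 and 5.91 in DCA mice, and 4.46, 6.59, 6.20, 6.26 and 6.96 in PB mice. The control mice differed widely among themselves, and PB replicate 1, where Ccnd2 was not detected, was the lowest array. The PB minus control difference was -0.20 ± 0.50 (adjusted p = 0.941), and the DCA minus control difference was 0.06 ± 0.53 (adjusted p = 0.996). The DCA minus PB difference was 0.25 ± 0.50 (adjusted p = 0.852). Without PB replicate 1, PB minus control was 0.21 and DCA minus PB -0.16, so both turned sign. Without control replicate 2, PB minus control was 0.23. The sign of DCA minus control also turned without control replicate 1 or 4, or DCA replicate 1 or 2.

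Ccnd3, the third D-type cyclin, was detected on 8 arrays. Its log2 levels ran from 7.29 to 7.51 in control mice, from 7.45 to 7.70 in DCA mice and from 7.18 to 7.70 in PB mice. The groups overlapped, and the DCA minus control difference was 0.17 ± 0.15 (adjusted p = 0.995). Ccnd3 is a gene whose detection p was combined over several probes, like those of Cdk2, Foxm1, Mcm6, Rrm2, Tk1 and Birc5.

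Cdk2, the kinase that partners cyclins E and A at the start of DNA synthesis, was detected on all arrays. Its log2 levels were 6.96, 6.87, 7.34 and 6.92 in control mice, 6.65, 6.77, 6.82 and 6.63 in DCA mice, and 6.89, 6.60, 7.33, 6.99 and 6.74 in PB mice. Every DCA array lay below every control array, while the PB arrays covered both ranges. The DCA minus control difference was -0.30 ± 0.16 (95% interval -0.65 to 0.04; limma adjusted p = 0.995). Groups without overlap were found for 2.41% of all tested genes in this comparison, and Cdk2 was the 1 such gene of the 16. Ccne1 and Ccne2, the E-type cyclins that bind CDK2, were detected on no array.

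Foxm1, the transcription factor of the mitotic programme, had the smallest p of the 16 genes in PB minus control and in DCA minus PB. Its log2 levels were 4.75, 4.92, 4.74 and 4.93 in control mice, 4.67, 4.53, 4.77 and 4.70 in DCA mice, and 5.75, 5.08, 5.46, 4.98 and 5.18 in PB mice. All 5 PB arrays lay above every control array and every DCA array, while control and DCA arrays overlapped. The PB mean was 5.29 ± 0.32 (SD, n = 5), the control mean 4.83 ± 0.11 (n = 4) and the DCA mean 4.66 ± 0.10 (n = 4). The PB minus control difference was 0.45 ± 0.15 (1.37-fold; limma adjusted p = 0.371). The DCA minus PB difference was -0.63 ± 0.15 (1.54-fold lower in DCA; adjusted p = 0.139). Neither passed over all tested genes, and the DCA minus control difference was -0.17 ± 0.16 (adjusted p = 0.995).

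The Foxm1 signal was close to the background of the arrays. Its raw intensity was 1.10 to 1.12 times the mean of the negative control beads in control mice, 1.05 to 1.13 times in DCA mice and 1.14 to 1.26 times in PB mice. It was detected on 4 of 4 control, 2 of 4 DCA and 5 of 5 PB arrays. The size of its difference moved with the background step. DCA minus PB was -0.31 with an offset of 50, -0.18 in the authors' normalized values and -0.077 with the background fitted on all genes. PB minus control was 0.23, 0.13 and 0.058 under the same alternatives. With estimated array weights DCA minus PB was -0.55 and passed (adjusted p = 0.0314), in a fit that called 308 genes in place of 9. Over all alternatives the adjusted p of that difference ran from 0.0314 to 0.387. Without PB replicate 1, PB minus control was 0.34 and DCA minus PB -0.51 (adjusted p = 0.139).

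E2f1, the founding E2F factor, was detected on all arrays, with group means of 6.09 ± 0.24 in control (SD, n = 4), 5.97 ± 0.10 in DCA (n = 4) and 6.22 ± 0.35 in PB mice (n = 5). Its differences were 0.13 ± 0.17 for PB minus control, -0.12 ± 0.18 for DCA minus control and -0.25 ± 0.17 for DCA minus PB, and none passed (adjusted p from 0.530 to 0.995).

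**Figure D2:**
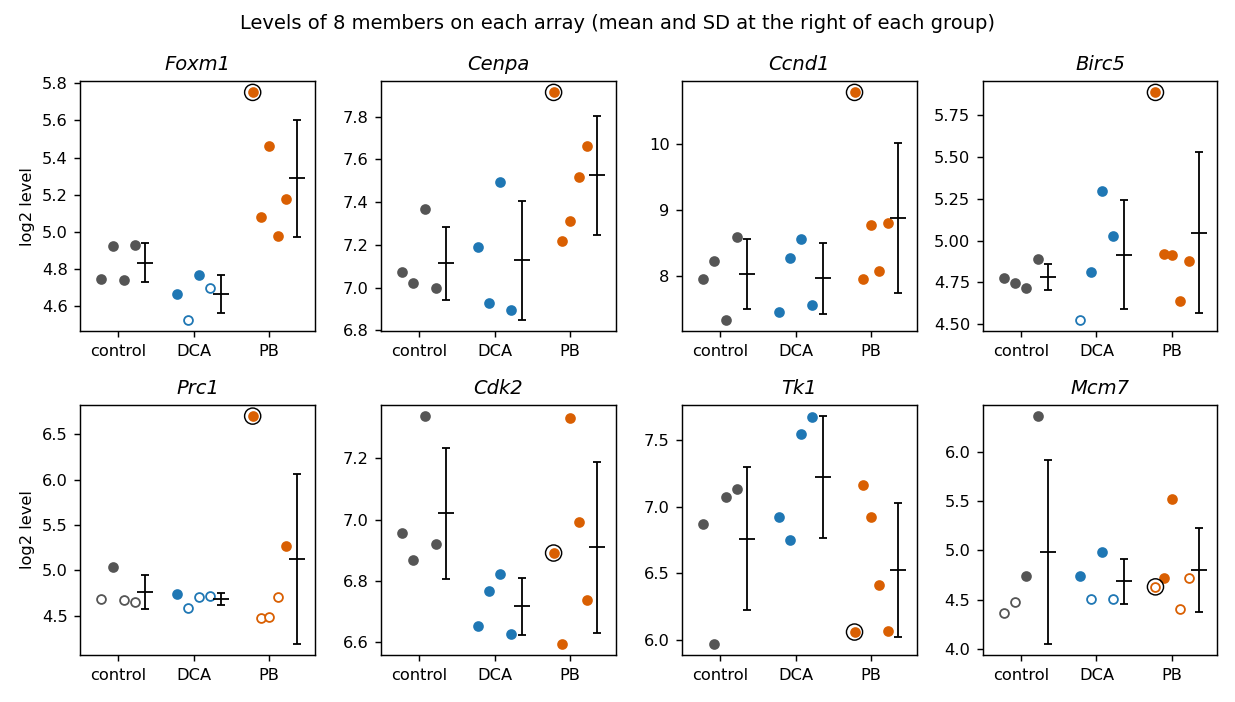
Log2 level of 8 genes on each array, with a point per mouse, the mean and SD at the right of each group, open circles where the gene was not detected and a black ring around PB replicate 1. Foxm1 is higher on all 5 PB arrays than on any other, Cdk2 is lower on all DCA arrays than on any control array, and PB replicate 1 is the highest array for Foxm1, Cenpa, Ccnd1, Birc5 and Prc1.

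Of the 8 genes of origin licensing, Mcm3, Mcm4, Cdc6, which loads the helicase, and Gmnn, the inhibitor of licensing, were detected on no array. The helicase subunit genes Mcm2, Mcm5, Mcm6 and Mcm7 were tested, having been detected on 7, 13, 10 and 6 arrays. Group means of Mcm2, Mcm5 and Mcm6 differed by at most 0.22 on the log2 scale between any pair of groups. Mcm7 was 4.37, 4.48, 4.73 and 6.36 in control mice, 4.74, 4.51, 4.98 and 4.50 in DCA mice, and 4.63, 4.72, 5.52, 4.41 and 4.72 in PB mice (chosen after its values were seen). A single control mouse, replicate 4, stood above all others. The DCA minus control difference of Mcm7, -0.30 ± 0.37 (adjusted p = 0.995), became 0.16 without that mouse. Control replicate 4 also had the highest mean of the neutrophil, platelet and erythroid marker lists, at 6.85, 7.37 and 8.98. All tested platelet genes were highest on it, as were S100a8, S100a9, Hbb-b1 and Slc4a1. Elane, Hba-a1, Alas2 and Klf1 of these lists were tested and were not highest there. The part of these markers in the Mcm7 level of control replicate 4 was not tested.

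Of the genes of the replication fork and of nucleotide supply, Rrm1, the large subunit of ribonucleotide reductase, and Tk1, thymidine kinase, were detected on all arrays. Rrm2, the subunit made in S phase, was detected on 5 arrays and on 0 of 4 control arrays, with group means of 4.44 ± 0.09 in control (SD, n = 4), 4.51 ± 0.13 in DCA (n = 4) and 4.49 ± 0.12 in PB mice (n = 5). Tyms, thymidylate synthase, was detected on 2 arrays, and Pcna, the sliding clamp of the polymerase, on none. Rrm1 means differed by at most 0.15 between groups.

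Tk1 log2 levels were 6.87, 5.97, 7.07 and 7.13 in control mice, 6.92, 6.75, 7.55 and 7.68 in DCA mice, and 6.06, 7.16, 6.93, 6.42 and 6.07 in PB mice. The DCA arrays tended to the upper end and control replicate 2 and PB replicates 1 and 5 to the lower end, but all groups overlapped. The DCA minus PB difference was 0.70 ± 0.30 (1.62-fold; limma adjusted p = 0.311). DCA minus control was 0.46 ± 0.32 (adjusted p = 0.995), and PB minus control was -0.23 ± 0.30 (adjusted p = 0.867). Tk1 and Foxm1 thus lay in opposite directions between DCA and PB mice, and neither difference passed.

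The 6 genes of mitotic entry and checkpoint were all left untested, while 46.5% of all genes were tested. Chek1, the checkpoint kinase, Ccna2 and Ccnb2 were detected on no array, Ccnb1 and Plk1 on 1 and Aurka on 3. Of the 11 genes of chromosome segregation, 8 were detected on no array (72.7%, against 41.0% of all genes). They were Top2a, Cdca8, Bub1, Bub1b, Ube2c, Kif11, Tpx2 and Nusap1. Cdc20, the activator of the anaphase-promoting complex, was detected on 2 arrays. With no filter on dim genes, the differences of the 23 untested genes ran from -0.08 to 0.33 for PB minus control, from -0.15 to 0.17 for DCA minus control and from -0.33 to 0.13 for DCA minus PB, and none passed.

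Cenpa, the histone H3 variant that marks centromeres, was the only gene of chromosome segregation detected on all arrays. Its log2 levels were 7.07, 7.02, 7.37 and 7.00 in control mice, 7.19, 6.93, 7.49 and 6.89 in DCA mice, and 7.91, 7.22, 7.31, 7.52 and 7.66 in PB mice. The highest 3 arrays were all PB arrays, and the lowest PB arrays overlapped the other groups. PB minus control was 0.41 ± 0.17 (1.33-fold; limma adjusted p = 0.442), and DCA minus PB was -0.40 ± 0.17 (adjusted p = 0.305). DCA minus control was 0.01 ± 0.18 (adjusted p = 0.998). With median scaling between arrays, DCA minus PB of Cenpa was 0.076, in a setting that moved the median of all genes to 0.34, so that Cenpa lay at -0.26 relative to it.

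Birc5, which encodes survivin of the chromosomal passenger complex, was detected on 12 arrays. Its log2 levels were 4.78, 4.75, 4.72 and 4.89 in control mice, 4.53, 4.81, 5.30 and 5.03 in DCA mice, and 5.89, 4.92, 4.91, 4.64 and 4.88 in PB mice. PB replicate 1 stood apart and the other PB arrays lay among the controls and DCA mice. PB minus control was 0.27 ± 0.22 (adjusted p = 0.750), and 0.06 without that array. Prc1, which bundles microtubules of the central spindle in cytokinesis, was 4.68, 5.04, 4.67 and 4.65 in control mice, 4.75, 4.59, 4.70 and 4.71 in DCA mice, and 6.70, 4.48, 4.49, 4.71 and 5.27 in PB mice (chosen after its values were seen). It was detected on 4 arrays, and PB minus control was 0.37 ± 0.36 (adjusted p = 0.802) with PB replicate 1 and -0.024 without it.

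The array of PB replicate 1 was the highest of the 13 for 8 of the 16 tested genes (50.0%), against 13.5% of all tested genes. These were Ccnd1, Foxm1, Mcm2, Mcm6, Rrm2, Birc5, Cenpa and Prc1. The same array was the lowest for 1 of the 16, Ccnd2, and for 18.3% of all tested genes, the largest share of the 13 arrays. Its estimated array weight, 0.35, was the smallest. Prc1 was detected on 3 of the other 12 arrays, so it reached the 4 arrays needed for testing only through PB replicate 1. Set against the mean of the other 12 arrays, the median deviation of PB replicate 1 over the 16 genes was 0.37. Those of the other arrays ran from -0.23 to 0.21. The following genes were chosen after their values were seen. Plk1, the polo kinase of mitotic entry, was 5.81 on PB replicate 1 and 4.33 to 4.61 on the other 12 arrays, and Ccnb1, cyclin B1, was 5.25 against 4.26 to 4.42. Both were detected on that array alone. Cdc20 was 6.13 against 4.39 to 4.54, and Aurka, the kinase of the spindle poles, was 5.26 against 4.34 to 4.72. Top2a, Kif11 and Nusap1 were also highest there, at 4.72, 4.68 and 4.76 against at most 4.52, 4.63 and 4.54, but were not detected. Ccna2, Ccnb2, Bub1 and Tpx2 were neither detected nor highest on that array, so only some mitotic genes stood out there. The array was not a bright one, with a mean raw intensity of 223 units and 40.5% of genes detected, yet 18 of the 39 genes were detected on it, as on DCA replicate 1, the brightest array, and 10 to 14 on the others.

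Other markers moved with that array. Of 5 liver tumour markers, Afp, Gpc3, H19 and Igf2 were each highest on PB replicate 1, at 6.06, 6.77, 7.51 and 9.52, against at most 4.45, 5.02, 5.71 and 6.65 on any other array, and Cd24a was detected on no array. Afp, alpha-fetoprotein of fetal liver and liver tumours, was detected on no other array. The mean of the tumour markers tested, Gpc3 and Igf2, ran from 4.59 to 5.78 in control mice, from 4.68 to 5.04 in DCA mice and from 4.65 to 8.15 in PB mice. PB replicate 1 was also the lowest of the 13 arrays for the mean of the Kupffer cell (5.80), erythroid (7.60), endothelial (5.75) and stellate cell (6.10) markers. Single genes of these lists were mixed. Of the tested erythroid genes only Alas2 was lowest on that array (9.10), while Hbb-b1, Hba-a1, Slc4a1 and Klf1 were not. In the other lists Cd68, Kdr, Lyve1 and Col1a2 were tested and were not lowest there. The hepatocyte marker mean of PB replicate 1 was the lowest too, at 10.96, but next to 10.98 in a control mouse. The hepatocyte markers went both ways, with Apoa1 highest of all arrays (14.36), Ttr tied for highest (14.09) and Cps1 lowest (9.78). Its means for T and NK cell, neutrophil, platelet and cholangiocyte markers lay within the range of the other arrays, and no B or plasma cell marker was tested. Of single genes in these lists, Spp1 (7.17), Sox9 (4.24) and Itga2b (4.71) were lowest there, and Krt19 (4.71) was highest. Sox9 and Krt19 were not tested. The part of these markers in the levels of the cell cycle genes was not tested.

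**Figure D3:**
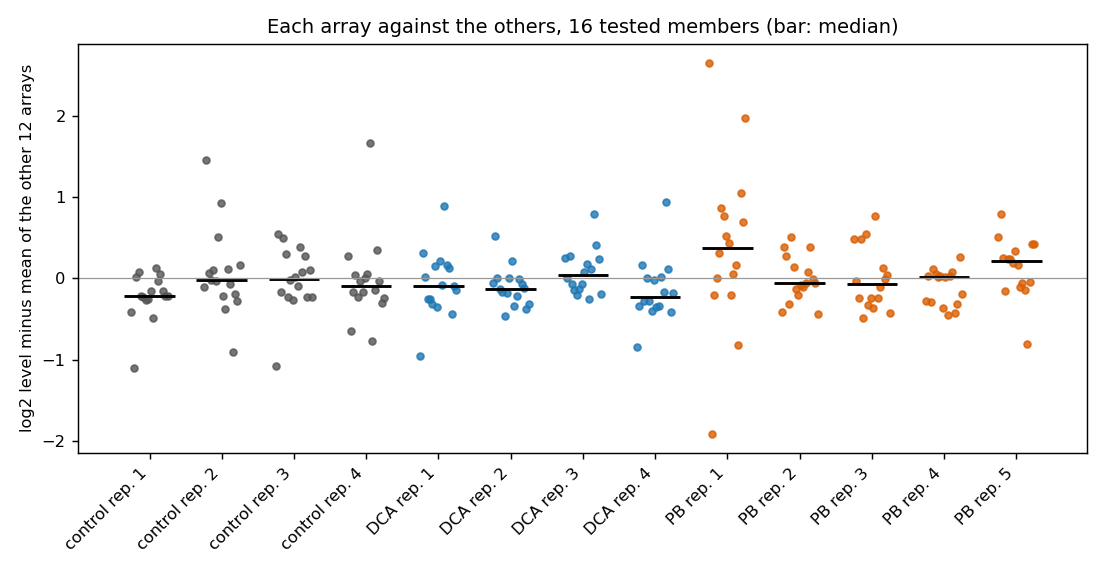
Log2 level of each of the 16 tested genes on an array minus its mean over the other 12 arrays, with a point per gene and a bar at the median. The bar of PB replicate 1 lies at 0.37, with 3 genes more than 1 above and 1 gene, Ccnd2, more than 1 below. Of all tested genes, 4.26% lay more than 1 above and 3.78% more than 1 below on that array, the largest shares of the 13 arrays. The bars of the other 12 arrays lie between -0.23 and 0.21.

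In PB minus control, 0 of the 16 genes passed, while 6 of 8431 genes did (0.0712%). An unadjusted p under 0.05 was reached by 2 of the 16, Foxm1 and Cenpa, both higher. Of all tested genes 10.1% reached it, 4.69% higher and 5.42% lower. Groups without overlap were found for 1 of the 16, Foxm1, and for 3.48% of all tested genes. The 16 differences were positive for 10 genes, against 49.0% of all genes, and their median was 0.07, against -0.01.

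In DCA minus control, 0 of the 16 genes passed, and 0 of 8431 genes did (0.0%). An unadjusted p under 0.05 was reached by 0 of the 16 and by 373 of all tested genes (4.42%), with 2.25% higher and 2.17% lower. The differences were positive for 8 of the 16, against 49.0% of all genes, with a median of -0.02 against -0.01. The intervals leave room for changes in either direction. That of Cenpa, for example, ran from -0.37 to 0.40, and that of Ccnd1 from -1.16 to 1.03.

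In DCA minus PB, 0 of the 16 genes passed, while 9 of 8431 genes did (0.107%). An unadjusted p under 0.05 was reached by 3 of the 16, with Foxm1 and Cenpa lower and Tk1 higher. Of all tested genes 14.5% reached it, 7.2% higher and 7.31% lower. Groups did not overlap for 1 of the 16, Foxm1, and for 5.98% of all tested genes. The differences were positive for 6 of the 16, against 49.4% of all genes, with a median of -0.12 against 0.00. This comparison shares its PB arrays with PB minus control and its DCA arrays with DCA minus control. An F test for any difference among the groups gave 0 of the 16 and 9 of all tested genes (0.107%), and an unadjusted p under 0.05 for Foxm1 and Cenpa and for 11.3% of all tested genes.

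**Figure D4:**
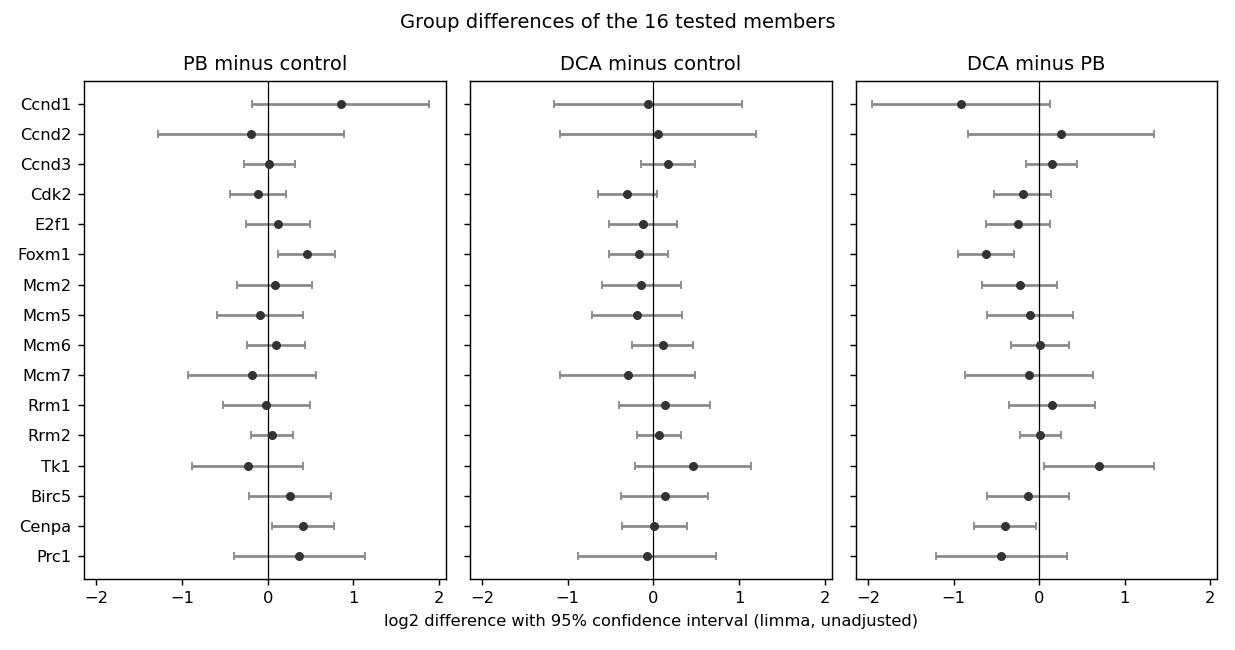
Log2 differences between groups for the 16 tested genes, with 95% confidence intervals from limma that are not adjusted for multiple tests. The interval excludes 0 for Foxm1 and Cenpa in PB minus control, for no gene in DCA minus control, and for Foxm1, Tk1 and Cenpa in DCA minus PB.

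A wider list of 129 other genes of the cycle held 115 with a row and 55 tested, and 42 were detected on no array. None of the 55 passed in any comparison. An unadjusted p under 0.05 was reached by 2 higher and 3 lower in PB minus control, by 1 higher and 2 lower in DCA minus control, and by 2 higher and 4 lower in DCA minus PB. These are 9.09%, 5.45% and 10.9% of the 55, against 10.1%, 4.42% and 14.5% of all tested genes. Of the 55, 16 were highest on PB replicate 1 (29.1%, against 13.5% of all tested genes). These held 6 of 10 genes of G2 and mitosis. Among the 6 were Mad2l1, a spindle checkpoint protein, at 6.13 against at most 4.95, and Cdca3, at 6.94 against at most 5.63. Another was Ncaph, detected on 3 of the other 12 arrays and so tested only through PB replicate 1.

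Rfc1, the large subunit of the clamp loader, was 7.55, 7.62, 7.81 and 7.31 in control mice, 7.15, 7.08, 7.23 and 7.29 in DCA mice, and 6.85, 7.02, 6.91, 7.27 and 7.26 in PB mice. Both exposed groups lay wholly below the controls, with differences of -0.51 ± 0.13 for PB (adjusted p = 0.229) and -0.38 ± 0.14 for DCA (adjusted p = 0.995), which share the same control arrays. Such a lack of overlap was found for 3.48% of all tested genes in PB minus control and 2.41% in DCA minus control. Rpa1, which coats single-stranded DNA, was 9.25, 9.48, 9.73 and 9.18 in control mice and 10.01, 9.87, 9.90, 9.69 and 9.88 in PB mice. PB replicates 1, 2, 3 and 5 lay above every control array and PB replicate 4 did not, and the difference was 0.46 ± 0.13 (adjusted p = 0.267).

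Rfc4, a small clamp loader subunit, lay lower on every DCA array (4.84 to 5.03) than on any PB array (5.22 to 5.55), by -0.37 ± 0.11 for DCA minus PB (adjusted p = 0.185). In that comparison 5.98% of all tested genes had groups without overlap. Cdkn2c, an inhibitor of the cyclin D kinases, was 4.78, 4.65, 4.91 and 5.07 in DCA mice and 6.38, 5.41, 5.16, 5.24 and 5.39 in PB mice. DCA minus PB was -0.66 ± 0.22 (adjusted p = 0.224), with PB replicate 1 again the highest array. Cdkn1a, the p53-induced inhibitor p21, was 4.97, 7.23, 4.93 and 6.90 in control mice and 4.83, 5.03, 5.20 and 4.89 in DCA mice. Control replicates 2 and 4 stood above all DCA mice and the other control mice lay among them. DCA minus control was -1.02 ± 0.43 (adjusted p = 0.995). The same control mice were high in the neutrophil markers S100a8 (7.47 and 7.60, against at most 6.04 in DCA mice) and S100a9 (7.46 and 7.77, against at most 5.86). Elane was 5.41 and 5.18 in them, against at most 4.88 in DCA mice. Camp, Ltf and Mpo were high on control replicate 4 only, Retnlg on control replicate 2 only, and Ngp was detected on no array. The part of these markers in the Cdkn1a difference was not tested.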

How the data were processed

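RNA of 13 mouse livers was measured on Illumina bead arrays, with groups taken from the labels. The main table holds 1 linear intensity per gene and array, not normalized, with its detection p-value, as the authors deposited it. The submitters' processing notes name GenomeStudio, and its version is not given in the sources used here. A second table of 18110 genes holds intensity values that the authors had normalized, and served as an alternative. Nothing in the labels says whether arrays came from separate litters, so p-values measure the spread between these mice.

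Background was corrected with the normexp model of limma 3.58.1 in R 4.3.3. Its mean and SD came from the detection p-values of the 13668 genes whose p was a whole multiple of 1 of 798 negative control beads, within 0.001 of a multiple, since in the other 4470 genes p had been combined over probes. An offset of 16, quantile normalization and log2 followed. Levels are log2 values on this scale, which compresses differences of dim genes, and folds are on it too. Levels of different genes are not comparable, since each has its own probe.

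Testing was limited to genes detected (p-value under 0.05) on 4 or more arrays. The fit used lmFit and eBayes over all 13 arrays, with two-sided tests, with Benjamini-Hochberg adjustment over all 8431 genes and a threshold of 0.05. The procedure was tested on simulated data. Given in full are the 4 tested genes with the smallest p in each comparison and, by level and by SD within groups, the leading 2 of each. Of the other pathway genes, the 2 with the smallest p in each comparison are given, and exceptions are named as such. The genes, lists and tests were chosen with earlier results of these data known. Alternatives covered background, normalization, offset, filter, groups fitted, array weights, array brightness and each array left out.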

Additional observations from a re-analysis of the deposited data

Results flagged for a closer look

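Of 48 groups of arrays examined (16 genes in 3 groups), 3 had a mouse far from the rest of its group by Dixon's criterion, and chance gives about 1 in 20. Mcm7 in the PB group was highest on PB replicate 3, at 5.52, with the next PB array at 4.72. Birc5 in the PB group was highest on PB replicate 1, at 5.89, with the next at 4.92. Prc1 in the control group was highest on control replicate 2, at 5.04, with the next at 4.68.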

How the results depend on the processing

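The number of the 16 genes past the threshold stayed at 0 in PB minus control, DCA minus control and the F test under every alternative run. In DCA minus PB it was 1 with array weights, where Foxm1 was -0.55 (adjusted p = 0.0314), and 0 otherwise. Over all alternatives, 8 of the 16 differences kept their sign in PB minus control, 8 in DCA minus control and 6 in DCA minus PB, and the differences that turned were at most 0.40 in size. Among those printed, DCA minus control of Mcm7 was 0.16 without control replicate 4 and ran from -0.51 to 0.16 over arrays left out. PB minus control of Prc1 was -0.024 without PB replicate 1 and ran from -0.024 to 0.53. Ccnd2 ran from -0.56 to 0.23 over arrays left out in PB minus control, positive without control replicate 2 (0.23) or PB replicate 1 (0.21), and from -0.16 to 0.47 in DCA minus PB, negative without PB replicate 1. In DCA minus control Ccnd2 ran from -0.31 to 0.48 and Cenpa from -0.11 to 0.096 over arrays left out. Ccnd2 was there -0.095 with the background fitted on all genes, -0.045 in the authors' values, -0.016 with an offset of 50 and -0.13 with array weights, which gave -0.14 for Cenpa and, in DCA minus PB, -0.031 for Ccnd2. With median scaling, DCA minus PB was 0.076 for Cenpa and 0.10 for E2f1, and PB minus control of E2f1 was -0.13. That scaling moved the median of all genes to -0.26 in PB minus control, 0.06 in DCA minus control and 0.34 in DCA minus PB, where 83.1% of genes lay higher and the median of the 16 genes was 0.088, or -0.25 relative to all genes. Relative to all genes Foxm1 then lay at -0.80.

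Calls over all tested genes in DCA minus PB, 9 as reported, were 1 with the background fitted on all genes, 2 in the authors' values, 0 with median scaling, 4 with an offset of 50, 0 with no filter, 17 with only the groups compared, 308 with array weights and 0 with array brightness as a covariate, which was added after seeing the data. They were 0 to 13 with an array left out, with 0 without DCA replicate 2 or 4, 3 without DCA replicate 1 or PB replicate 5, 4 without PB replicate 3 and 5 without control replicate 3 or PB replicate 1. In PB minus control, 6 as reported, they were 2 with the background fitted on all genes, 0 with median scaling, 12 among genes detected on all 13 arrays, 2 with only the groups compared and 1 with array brightness. They were 1 to 13 with an array left out, with 13 without PB replicate 4, 3 without control replicate 1 or 2 or PB replicate 2, and 1 without control replicate 3 or 4, DCA replicate 2 or PB replicate 5. DCA minus control gave 0 throughout. The cause of these shifts was not tested.

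The number of genes lying higher in PB minus control, 10 of 16, was 25 of 39 with no filter, 3 of 7 among genes detected on all arrays and 9 to 13 with an array left out. In DCA minus control, 8 of 16, it was 19 of 39, 3 of 7 and 6 to 11. In DCA minus PB, 6 of 16, it was 10 with median scaling, 14 of 39 with no filter, 2 of 7 among genes detected on all arrays and 3 to 7 with an array left out, the lowest without DCA replicate 1. Foxm1, Birc5, Prc1, Ccnd2, Ccnd3, Mcm2, Mcm6, Mcm7 and Rrm2 have no value among genes detected on all 13 arrays. Correlations of Top2a with other genes over arrays were not run, since Top2a was detected on no array. No paired analysis was possible because replicate numbers were given in accession order and pair no mice. Signal near background limits most of these genes, and fewer than 6 mice per group limit all of them.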
